A study of Mus musculus with 16 samples.

Results

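The genes described here carry out or control the burning of fatty acids and the handling of ketone bodies: fatty acid uptake and binding, activation and the carnitine shuttle, mitochondrial β-oxidation and its electron transfer, peroxisomal steps, ketone metabolism and their regulators. They were 30 genes named as members of this pathway, taken wherever the array's annotation gave a probe set to that gene alone, and the rule set no threshold on the values. Of the 30, 29 were measured, among 19938 genes in all, and Acsl1, an acyl-CoA synthetase, had no such probe set.

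Fatty acids enter the cell through carriers such as CD36, are held by small binding proteins and are joined to coenzyme A before carnitine palmitoyltransferase 1 commits them to the mitochondrion. There each round of β-oxidation runs through a dehydrogenase, a hydratase, a second dehydrogenase and a thiolase, and the electrons leave through the electron transfer flavoprotein. In the colon the main substrate is butyrate made by bacteria, which colonocytes oxidise by mitochondrial β-oxidation. The nuclear receptor PPARα with its coactivator PGC-1α is known to raise transcription of genes of this pathway.

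The study asked how early and lifelong secretory IgA (SIgA) affect the colonic epithelium, at rest and in colitis caused by dextran sulfate sodium (DSS), a polysaccharide that injures the colonic surface. Colonic epithelial cells were isolated from C57BL/6 mice aged 70 days, and each array held RNA pooled from 3 mice, with 2 arrays in each of 8 groups. The polymeric immunoglobulin receptor gene Pigr carries SIgA into milk and into the gut lumen, so that the dam's genotype set the passive supply in milk and the pup's own genotype the active supply. Mice were given 2% DSS in drinking water for 8 days or were left untreated.

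Within each treatment there were 4 SIgA groups. Mice with neither source were Pigr-/- offspring of Pigr-/- dams, and mice with active SIgA only were Pigr+/- offspring of Pigr-/- dams. Mice with passive SIgA only were Pigr-/- offspring of Pigr+/- dams, and mice with both were Pigr+/- offspring of Pigr+/- dams. Every mouse carried at least 1 disrupted Pigr allele, so that no wild-type group was compared, and the deletion was not limited to the epithelium by any label. Dams and litters came with the passive supply, and their effects cannot be told apart from it.

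Values are log2 intensities, on which a difference of 1 is a doubling. Pigr itself lay between 11.34 and 11.70 in the 8 arrays of Pigr-/- offspring and between 12.18 and 12.46 in those of Pigr+/- offspring. The 8 general epithelial markers averaged 12.49 to 12.66 in DSS arrays and 12.53 to 12.63 in untreated arrays, near the top of a scale that ended at 14.938, so the markers of the labelled cell type were strong on every array. The untreated arrays with both SIgA sources stood apart from the rest: the mean over 1241 olfactory, vomeronasal, trace amine and bitter taste receptor genes, typical of sensory organs, was 5.22 and 5.38 there and 4.82 in the first untreated array with active SIgA only, against 4.4 to 4.66 in the other 13. Calls that change without these arrays are given with and without them, and the DSS comparison in mice with both sources has no other untreated arrays.

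Taken over all SIgA groups together, the pathway did not move as a block after DSS. A difference was called at an adjusted p under 0.05 in limma's moderated test, with adjustment over all genes. Averaged over the 4 SIgA groups, 6 of 29 members (20.7%) passed, with 4 lower and 2 higher, against 13.1% of all genes, 6.73% lower and 6.40% higher. The 4 that fell were the coactivator gene Ppargc1a, the binding protein gene Fabp2, the fuel switch Pdk4 and the ketone body enzyme gene Oxct1. The long-chain dehydrogenase gene Acadl and the acyl-CoA synthetase gene Acsl5 rose. The members' median difference was -0.01, against -0.004 over all genes. At an unadjusted p under 0.05 there were 10 members (34.5%), against 26.5% of all genes. Without both untreated arrays that held passive and active SIgA, 5 members were called, 1 higher and 4 lower, against 6.07% of all genes.

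**Figure D1:**
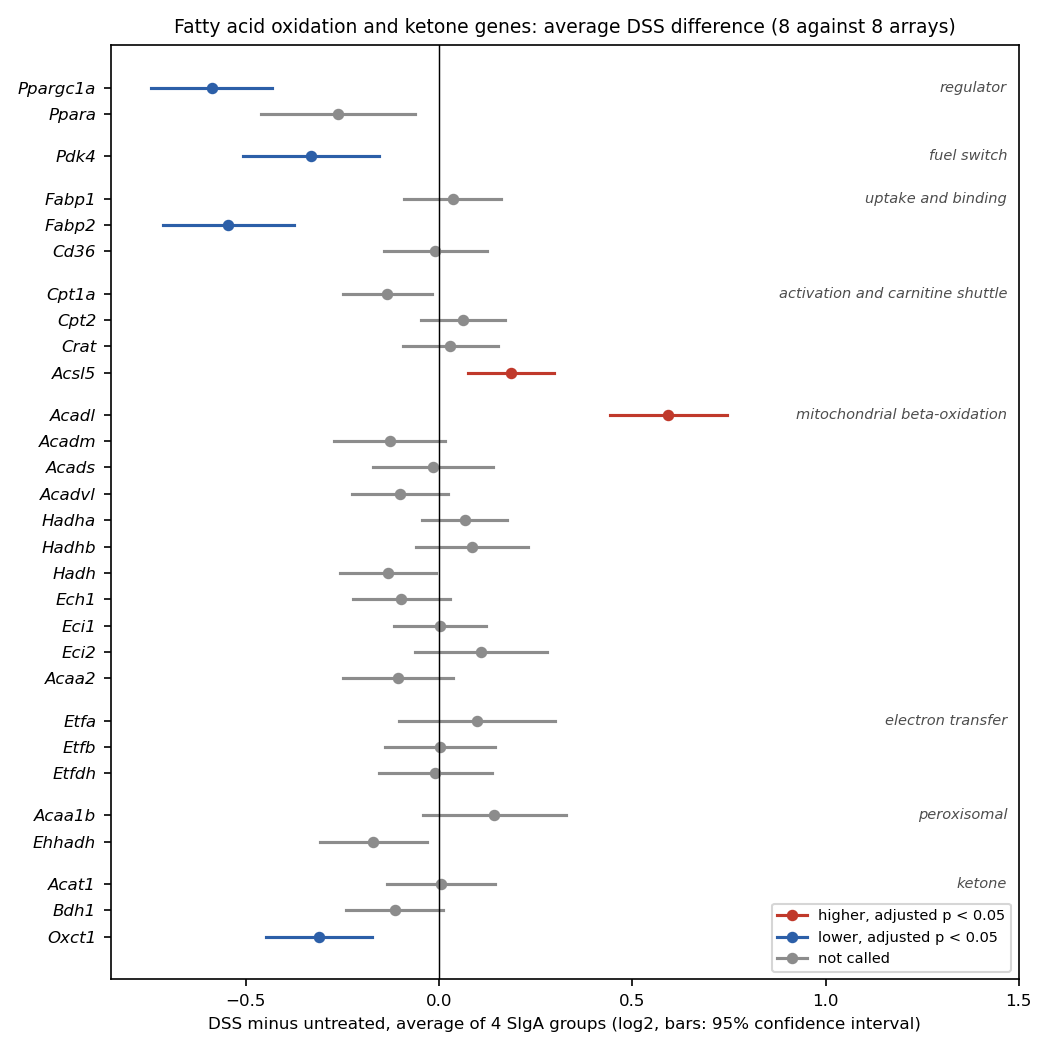
Difference between DSS and untreated arrays for the 29 measured members, in log2, averaged over the 4 SIgA groups. Points are estimates from 8 DSS and 8 untreated arrays and bars are 95% confidence intervals. Acadl at 0.59 and Ppargc1a at -0.59 lie farthest from 0, and the 23 grey members lie between -0.26 and 0.14.

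Among the regulators, Ppargc1a encodes PGC-1α, a coactivator that drives mitochondrial biogenesis and fatty acid oxidation. It had 8.87 as its lowest, 9.0 as its median and 9.35 as its highest log2 intensity in the 8 DSS arrays, against 9.43, 9.63 and 9.80 in the 8 untreated arrays. Every DSS array lay below every untreated array. The average difference was -0.59 ± 0.07 (SE; 95% interval -0.75 to -0.43; adjusted p = 0.000143), which is 1.5-fold lower. A second probe set for Ppargc1a gave -0.62, with 7.17 to 8.19 in DSS arrays and 7.68 to 8.82 in untreated arrays, so that its sides overlapped. In a bulk sample such as this, fewer cells of a type and less RNA in each cell cannot be told apart.

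Ppara, the nuclear receptor that binds fatty acids and switches on their oxidation, was not called. Its values were 8.13, 8.35 and 8.72 (lowest, median and highest) in DSS arrays and 8.37, 8.62 and 9.0 in untreated arrays. The sides overlapped widely, and the difference was -0.26 ± 0.09 (adjusted p = 0.0837; 95% interval -0.46 to -0.06). It was called without the second DSS array of mice with passive SIgA only (-0.33, adjusted p = 0.021) and without the second untreated array of mice with active SIgA only (-0.31, adjusted p = 0.0314). Pdk4 encodes a kinase that turns off pyruvate dehydrogenase and so spares glucose while fat is burned, and it is a textbook PPAR target. It had 9.15, 9.62 and 10.12 in DSS arrays, against 9.76, 10.05 and 10.20 in untreated arrays. The DSS arrays were spread over a wider range than the untreated ones and overlapped them at the top. Pdk4 fell by 0.33 ± 0.08 (adjusted p = 0.0165).

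Of the uptake and binding genes, Fabp2 fell. It encodes the intestinal fatty acid binding protein of absorptive cells. Its lowest, median and highest values were 9.96, 10.18 and 10.55 in DSS arrays, against 10.49, 10.81 and 10.92 in untreated arrays. The highest DSS array passed the lowest untreated ones by a small margin, and all others lay below them. The difference was -0.55 ± 0.08 (adjusted p = 0.000484), which is 1.46-fold lower. The liver-type binding protein gene Fabp1 and the fatty acid translocase gene Cd36 were dim on these arrays, with 4.01 to 4.29 and 3.87 to 4.31 in DSS arrays and 4.02 to 4.41 and 3.80 to 4.37 in untreated arrays, where array medians over all probe sets lay between 6.678 and 6.825. Neither was called, and a low value on this scale does not separate weak expression from background.

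Acsl5 joins long-chain fatty acids to coenzyme A and is the main such enzyme of intestinal epithelium. It had 9.54, 9.60 and 9.76 in DSS arrays, against 9.13, 9.48 and 9.59 in untreated arrays. The lowest pair of untreated values, 9.13 and 9.26, came from mice with active SIgA only, and the remaining arrays of both sides lay close together. The rise was 0.19 ± 0.05 (adjusted p = 0.0311), and it was not called without both untreated arrays that held passive and active SIgA (0.21, adjusted p = 0.0702). It was also lost on leaving out any one of 11 of the 16 arrays, the untreated arrays of mice with neither source and the DSS arrays of the same mice among them. The gatekeeper of the carnitine shuttle, Cpt1a, had 11.50, 11.59 and 11.68 in DSS arrays and 11.58, 11.74 and 11.89 in untreated arrays. Its difference of -0.13 was not called (adjusted p = 0.125), and neither were those of Cpt2, the inner membrane transferase, and Crat, carnitine acetyltransferase, at 0.06 and 0.03.

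The 11 measured genes of mitochondrial β-oxidation gave 1 call. Acadl encodes the long-chain acyl-CoA dehydrogenase, which takes the first oxidative step on long and branched chains. It had 10.77, 10.99 and 11.14 in DSS arrays, against 10.09, 10.41 and 10.66 in untreated arrays. Every DSS array lay above every untreated array. The difference was 0.59 ± 0.07 (95% interval 0.44 to 0.74; adjusted p = 0.000101), a 1.51-fold rise, and 0.51 (adjusted p = 0.003) without both untreated arrays that held passive and active SIgA. It was 0.45 when the first untreated array with active SIgA only was left out as well. Acadl and Ppargc1a were the 2 of 29 members (6.9%) whose DSS and untreated arrays did not overlap, against 2.89% of all genes.

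The other acyl-CoA dehydrogenases, which take the same step on chains of other lengths, did not move with it. Acadvl, for very long chains, gave -0.10, Acadm, for medium chains, -0.13, and Acads, for short chains such as butyrate, -0.02, and none was called. The difference of log2 values Acadl minus Acadvl in each array was 0.70 higher on average in DSS arrays than in untreated arrays. For Acadl minus Acadm the shift was 0.72, and for Acadl minus Acads it was 0.61. In all 3 pairs every DSS array lay above every untreated array, which the separation of Acadl itself made likely. Acadl was set against these genes with its own rise already known. These values are therefore no separate test and describe only how far its relatives stayed behind.

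The 10 other genes of mitochondrial β-oxidation lay between -0.13 and 0.11, with 95% intervals inside -0.27 and 0.28. They include Hadha and Hadhb, the subunits of the trifunctional protein that works on long chains after Acadvl, at 0.07 and 0.09, and a second probe set for Hadhb gave 0.10. Hadh, the hydroxyacyl-CoA dehydrogenase for shorter chains, stood at -0.13 (adjusted p = 0.16), and the mitochondrial thiolase gene Acaa2 at -0.11. The isomerase and auxiliary genes Ech1, Eci1 and Eci2 were at -0.10, 0.00 and 0.11. The genes Etfa, Etfb and Etfdh, whose products pass electrons from the dehydrogenases to the respiratory chain, were at 0.10, 0.00 and -0.01.

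In the peroxisome, Ehhadh, the bifunctional enzyme and a known PPARα target, gave -0.17 (adjusted p = 0.102). It was called without the second DSS array of mice with passive SIgA only (-0.21, adjusted p = 0.0457) and after quantile normalization (-0.21, adjusted p = 0.0405). The thiolase gene Acaa1b gave 0.14 from dim values of 5.50 to 5.98 in DSS arrays and 5.16 to 5.99 in untreated arrays. Acaa1b has a near-identical paralog, Acaa1a, so that its probe set may read both. Of the ketone genes, Oxct1 encodes the mitochondrial transferase that lets a cell use ketone bodies made elsewhere. It had 9.41, 9.61 and 9.83 in DSS arrays, against 9.71, 9.94 and 10.11 in untreated arrays. Most DSS arrays lay below all untreated arrays, with a small overlap, and the difference was -0.31 ± 0.06 (adjusted p = 0.00593). Bdh1, which interconverts the main ketone bodies, gave -0.12, and Acat1, the mitochondrial acetoacetyl-CoA thiolase, gave 0.00. Neither was called.

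For the 23 members not called, every 95% interval lay between -0.46 and 0.33, so that an average difference of 0.5 log2 units lay outside all of them. They were not shown to be equal in DSS and untreated mice.

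**Figure D2:**
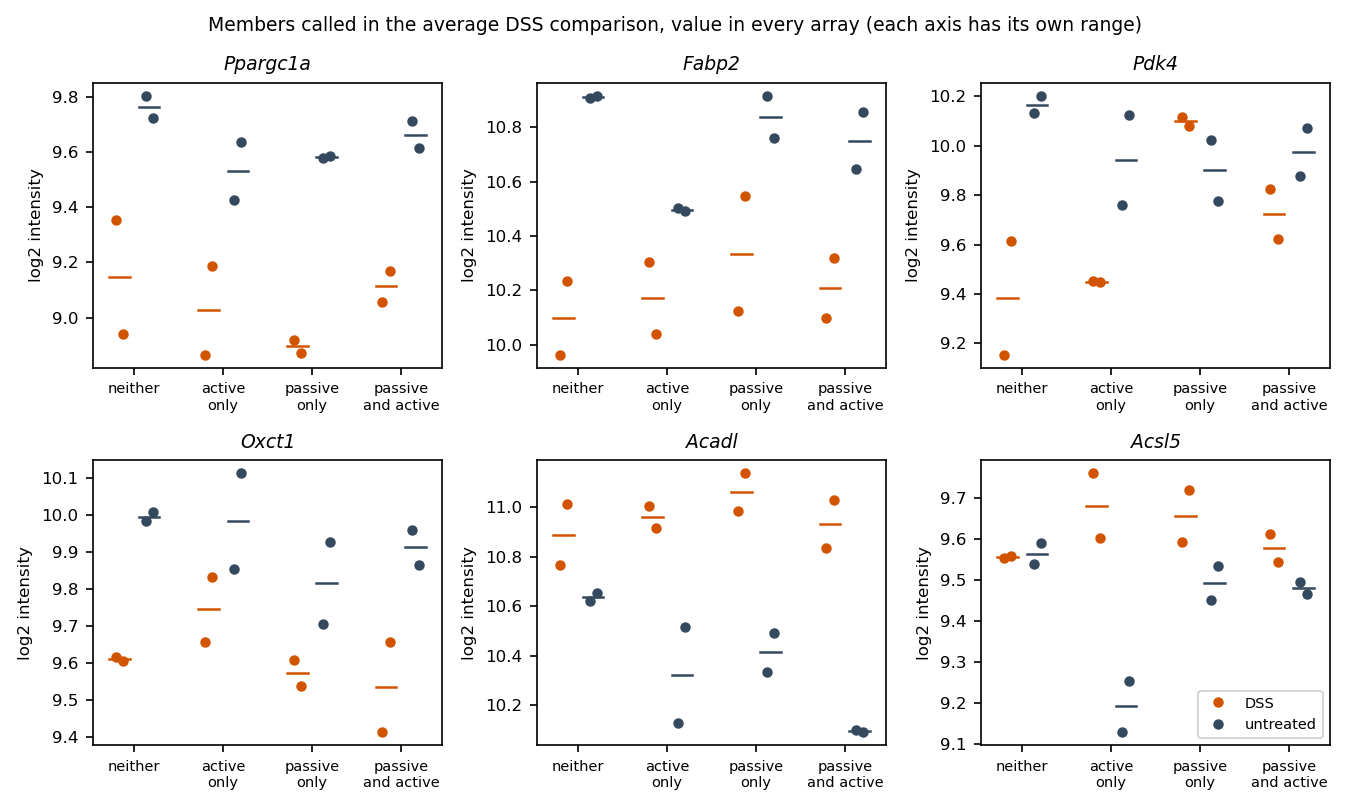
Log2 intensity of the 6 members called in the average DSS comparison, in each of the 16 arrays. Points are arrays, each a pool of 3 mice, with DSS in orange at left and untreated in dark blue at right of each SIgA group, and lines are group means. DSS points of Ppargc1a and Acadl lie apart from all untreated points. Those of Pdk4 reach the untreated range of 9.76 to 10.20 with passive SIgA only, at 10.12 and 10.08, and with both sources, at 9.82.

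Promoter sequence was available for 27 of the 30 members, in 29 windows of the RefSeq annotation of GRCm38.p6, each reaching 250 bases before and 50 after a transcription start. The sequences that follow are the 250 bases before the start of both members with complete separation of the arrays and of the other called members Fabp2 and Pdk4, shown because the genes that moved differ in base composition here. They run 5′ to 3′ along the gene's strand, with each CpG in capitals.
Acadl, chr1:66863310-66863559, minus strand: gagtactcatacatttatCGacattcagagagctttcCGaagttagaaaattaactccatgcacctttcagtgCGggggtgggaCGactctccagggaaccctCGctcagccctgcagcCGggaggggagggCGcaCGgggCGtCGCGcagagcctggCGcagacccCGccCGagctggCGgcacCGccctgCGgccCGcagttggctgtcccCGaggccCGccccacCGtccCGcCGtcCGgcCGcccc
Ppargc1a, chr5:51567726-51567975, minus strand: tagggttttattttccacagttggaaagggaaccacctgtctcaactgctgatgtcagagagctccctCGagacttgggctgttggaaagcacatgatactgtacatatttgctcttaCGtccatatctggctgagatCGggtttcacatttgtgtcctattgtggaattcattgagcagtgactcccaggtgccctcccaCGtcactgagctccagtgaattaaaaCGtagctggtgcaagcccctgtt
Fabp2, chr3:122894822-122895071, plus strand: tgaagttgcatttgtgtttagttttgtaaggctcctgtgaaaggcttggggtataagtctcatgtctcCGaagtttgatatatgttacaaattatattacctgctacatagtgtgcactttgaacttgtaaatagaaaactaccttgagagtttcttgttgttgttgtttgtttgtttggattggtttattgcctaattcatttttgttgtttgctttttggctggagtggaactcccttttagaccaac
Pdk4, chr6:5496279-5496528, minus strand: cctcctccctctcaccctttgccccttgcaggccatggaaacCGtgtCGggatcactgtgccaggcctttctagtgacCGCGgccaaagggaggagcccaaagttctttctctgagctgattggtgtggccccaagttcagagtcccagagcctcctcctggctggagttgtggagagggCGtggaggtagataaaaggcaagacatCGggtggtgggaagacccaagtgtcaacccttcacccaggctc
The stretch before Acadl holds 25 CpG and has 68.0% G and C, as in a CpG island promoter. That before Fabp2 holds 1 CpG and has 35.6% G and C, and those before Ppargc1a and Pdk4 hold 5 and 6. The windows before Oxct1 and Acsl5 hold 6 and 7 CpG. Over the 29 member windows the median was 11, with 1 to 27, and over all 32851 windows in the table it was 6. The 4 members that fell had 1 to 6 CpG and the 2 that rose had 25 and 7, which describes 6 promoters and was not tested.

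Fixed motifs were searched in the full windows on both strands. The nuclear receptor motif AGGTCA was found in the windows of Acadm, Acadvl, Cd36, Cpt1a and Fabp1, 5 of 29, against 16.26% of all windows. It was in no window of a member called in the average DSS comparison. It is contained in the direct repeat of PPAR partners (AGGTCA, any base, AGGTCA) and in the element TCAAGGTCA of estrogen-related receptors, which were in no member window and in 0.04% and 0.42% of all. The HNF4 element CAAAGTCCA and the cAMP response element TGACGTCA were in no member window either, against 0.47% and 1.79%. The CDX type motif TTTATG was in the windows of Cd36, Eci1 and Fabp1, against 11.85% of all windows. Hadha and Hadhb start 272 bases apart on opposite strands, so that their windows share 228 bases.

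Next, the DSS difference was taken within each SIgA group, where 2 DSS arrays stood against 2 untreated arrays. With neither source, 2 members were called, against 1.12% of all genes. Those were Fabp2 at -0.81 ± 0.16 (adjusted p = 0.0239) and Pdk4 at -0.78 ± 0.16 (adjusted p = 0.0366). With active SIgA only, 1 was called, against 0.998%, and it was Acsl5 at 0.49 ± 0.10 (adjusted p = 0.0433). With passive SIgA only, 2 were called, against 1.98%, Ppargc1a at -0.69 ± 0.15 (adjusted p = 0.0289) and Acadl at 0.65 ± 0.14 (adjusted p = 0.0319). With both sources, 3 were called, against 10.1%, Acadl at 0.84 ± 0.14 (adjusted p = 0.00199), Ppargc1a at -0.55 ± 0.15 (adjusted p = 0.0305) and Fabp2 at -0.54 ± 0.16 (adjusted p = 0.0456). The untreated side of this last comparison consists of the 2 arrays that stand apart, so its calls and the 10.1% rest on them and have no value without them. Without those arrays in the fit, Pdk4 was no longer called with neither source (adjusted p = 0.0546), nor Acsl5 with active SIgA only (adjusted p = 0.0724), nor Acadl with passive SIgA only (adjusted p = 0.0534). Their differences were the same, since the spread alone was estimated from fewer arrays. Which members were called in a group does not show that groups differ. The members' median difference was -0.124 with neither source, against 0.011 over all genes, and -0.057 with both sources, against 0.035. It was -0.044 with active SIgA only, against -0.062, and 0.032 with passive SIgA only, against 0.033. Negative differences numbered 22, 20, 19 and 13 of 29 members in that order, and these medians and counts were not tested. Calls within a group rested on few arrays: without single arrays the number called ran between 0 and 2 in each of the first 3 groups and between 1 and 4 with both sources.

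Ppargc1a was lower in DSS mice of every SIgA group, by 0.62 with neither source, 0.51 in the active SIgA only group, 0.69 in the passive SIgA only group and 0.55 with both. Acadl was higher in each. Its DSS arrays had 10.77 and 11.01 with neither source, against 10.62 and 10.66 in untreated arrays, and 11.00 and 10.92 with active SIgA only, against 10.13 and 10.51. With passive SIgA only they had 10.99 and 11.14, against 10.34 and 10.49, and with both sources 10.83 and 11.03, against 10.10 and 10.09. The DSS arrays of all groups reached like levels, and the untreated arrays differed more from group to group, lowest with both sources. The lowest untreated values, 10.10, 10.09 and 10.13, belong to the arrays in which the chemosensory receptor genes were highest. What part the raised receptor signal has in this pattern was not tested. The interaction of the Acadl difference with passive SIgA was -0.30 ± 0.14 (adjusted p = 0.612) and with active SIgA -0.29 ± 0.14 (adjusted p = 0.439), so that a dependence on SIgA was not detected.

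Over the 29 members, 1 was higher in DSS arrays of all 4 groups (3.4%, against 13.0% of all genes), 9 were lower in all 4 (31.0%, against 12%), and 19 were mixed (65.5%, against 75.1%). The 4 differences come from separate arrays, but members of a pathway are not independent of one another, and the count was not tested. The 9 were Ppargc1a, Ppara, Cpt1a, Acadm, Hadh, Ehhadh, Bdh1, Oxct1 and Fabp2. Several of these differences were small, such as Bdh1 at -0.00 with neither source and -0.03 with both, and only those named above passed the test in any group.

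**Figure D3:**
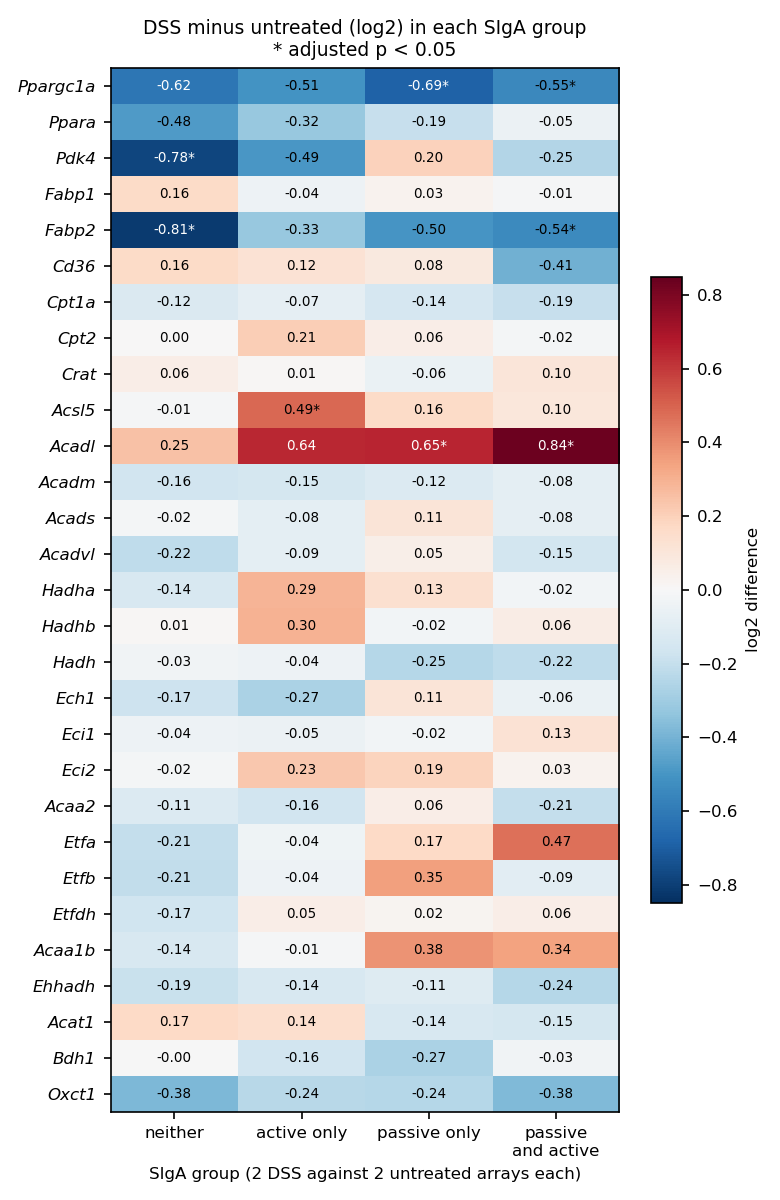
Difference between DSS and untreated arrays (log2) for each measured member in each SIgA group, 2 arrays a side, in the order of their roles. Red is higher and blue lower in DSS mice, and an asterisk marks an adjusted p under 0.05. The rows of Ppargc1a and Fabp2 are blue throughout and that of Acadl is red throughout, while Pdk4 ranges from -0.78 with neither source to 0.20 with passive SIgA only.

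Pdk4 was the member whose DSS arrays differed most visibly by SIgA group. Its DSS arrays had 9.15 and 9.61 with neither source, 9.45 and 9.45 in the active SIgA only group, 10.12 and 10.08 in the passive SIgA only group and 9.82 and 9.62 with both. Untreated arrays of those groups had 10.13 and 10.20, 9.76 and 10.13, 10.02 and 9.78, and 9.88 and 10.07. After DSS the 4 arrays without passive SIgA all lay below the 4 with it, and in untreated mice they overlapped. Lack of passive SIgA after DSS gave Pdk4 a difference of -0.50 ± 0.12, with an unadjusted p of 0.000874, but an adjusted p of 0.363. The interaction of passive SIgA with DSS was -0.61 ± 0.16 for Pdk4 (unadjusted p = 0.0024, adjusted p = 0.241), so that neither passed the test, and the gene was singled out after its values were seen.

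In all, lack of passive SIgA after DSS gave no call among the members, as among all genes (0%), with 2 members and 788 genes at an unadjusted p under 0.05. Of the members, 2 (6.9%) had arrays on either side that did not overlap, Pdk4 below and Cd36 above, against 3.08% of all genes. Loss of active SIgA after DSS gave no member, against 0.00502% of all genes, and none had an unadjusted p under 0.05. By active SIgA after DSS the arrays of every member overlapped, as did those of all but 1.33% of genes. No member was called in the interaction of passive SIgA with DSS, against 0.115%, or of active SIgA with DSS, against 0.843%, and 5 members (17.2%) and 0 members had an unadjusted p under 0.05, against 8.1% and 12% of all genes.

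In untreated mice, lack of passive SIgA gave 1 call among the members, against 2.58% of all genes. Acat1, the thiolase that forms and splits acetoacetyl-CoA, had 9.95 and 10.01 with active SIgA only and 9.98 and 10.23 with neither source, against 10.42 and 10.51 with both sources and 10.40 and 10.37 with passive SIgA only. All arrays without passive SIgA lay below all arrays with it. The difference was -0.38 ± 0.09 (adjusted p = 0.0469), and it was -0.28 (adjusted p = 0.741) without both untreated arrays that held passive and active SIgA, where no gene was called. Leaving out any one of 11 of the 16 arrays also ended the call. After DSS the ranges of Acat1 were 9.97 to 10.40 without passive SIgA and 10.24 to 10.34 with it, and they overlapped.

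Hadh and Acaa1b also had untreated arrays that did not overlap by passive SIgA, which made 3 of 29 members (10.3%), against 6.19% of all genes. Hadh had 12.32, 12.35, 12.31 and 12.52 without passive SIgA and 12.62, 12.66, 12.55 and 12.70 with it. Acaa1b had 5.99, 5.54, 5.79 and 5.53 without it and 5.37, 5.16, 5.30 and 5.34 with it. Hadh was thus lower and Acaa1b higher in every array without passive SIgA, but at -0.26 (adjusted p = 0.106) and 0.42 (adjusted p = 0.0842) neither was called.

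Loss of active SIgA in untreated mice gave 1 call, Cd36, against 7.49% of all genes. Cd36 had 3.80 and 3.92 with passive SIgA only and 3.81 and 3.99 with neither source, against 4.37 and 4.31 with both sources and 4.20 and 3.95 with active SIgA only. The 3 highest untreated values belong to the 3 arrays in which the chemosensory receptor genes were highest. The difference was -0.33 ± 0.09 (adjusted p = 0.0402), it was -0.17 (adjusted p = 0.536) without both untreated arrays that held passive and active SIgA, and -0.05 (adjusted p = 1) without all 3. Leaving out any one of 11 of the 16 arrays also ended this call, and the arrays of every member overlapped by active SIgA in untreated mice, where 10.3% of genes did not overlap. What part the raised receptor signal, or whatever raised it, has in this difference was not tested.

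**Figure D4:**
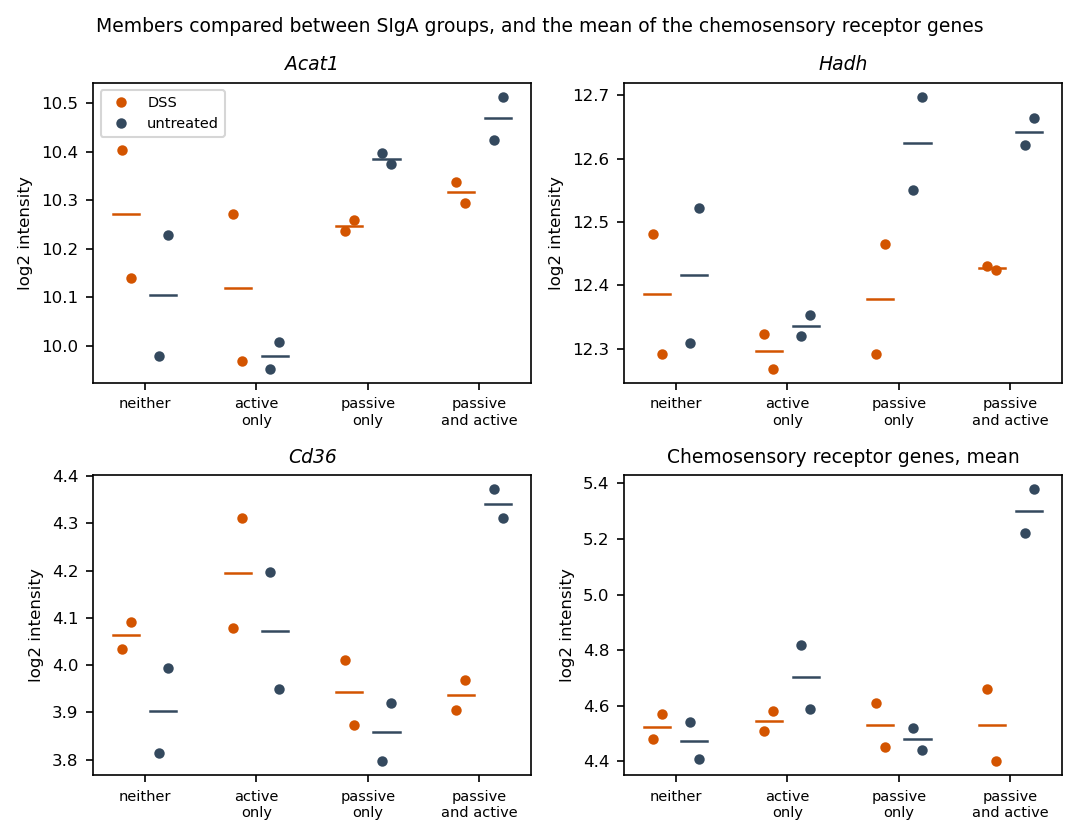
Log2 intensity of Acat1, Hadh and Cd36, and the mean of 1241 chemosensory receptor genes, in each of the 16 arrays by SIgA group, with DSS at left and untreated at right of each group and lines at the means. Untreated arrays without passive SIgA lie below those with it for Acat1 and Hadh. The receptor genes are highest in untreated arrays with both sources, at 5.22 and 5.38, where Cd36 has 4.37 and 4.31, and 1 DSS array with active SIgA only also has 4.31 for Cd36.

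The arrays of untreated mice also held some members at an extreme of all 16 arrays. With both sources, 3 members (Acat1 above, Acadl and Etfa below) lay beyond every other array in both arrays, where 14.5% of all genes did. With neither source, Ppargc1a, Ppara and Pdk4 lay above every other array and no member lay below. There 3.91% of all genes lay above or below, 643 of them above. With active SIgA only, Cpt2, Hadha and Acsl5 lay below every other array and no member above, against 3.95% of genes in either direction, 411 of them below. With passive SIgA only, Bdh1 lay above and no member below, against 3.94% in either direction, 541 of them above.

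Genes around the pathway were then read in the average DSS comparison, in lists drawn up from general knowledge, beside the 13.1% of all genes called there. Of 15 other regulators and PPAR partners none was called, and the smallest p was that of Hnf4a, a nuclear receptor of intestinal epithelium, at -0.15 (adjusted p = 0.0523). Of 11 other PPAR targets, 2 were higher and 1 was lower. Vnn1, a pantetheinase, was at 0.77 (adjusted p = 4.72e-06) and the peroxisome division gene Pex11a at 0.25, while the fatty acid ω-hydroxylase gene Cyp4a10 was at -0.46 (adjusted p = 0.00183). The targets thus moved in both directions, with a list median of -0.02. Of 13 other uptake and transport genes, 1 was lower, the transporter gene Slc27a1 at -0.33.

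Of 15 other mitochondrial oxidation genes, 2 were higher and 1 was lower. Pdk2, another kinase of pyruvate dehydrogenase, fell by 0.62 ± 0.07 (adjusted p = 4.7e-05), and its relatives Pdk1 and Pdk3, chosen after their values were seen, were at 0.06 and 0.29 and were not called. Acacb, which makes the malonyl-CoA that holds back carnitine palmitoyltransferase 1, rose by 0.32 (adjusted p = 0.00988), and Decr1, which readies unsaturated chains for β-oxidation, by 0.17 (adjusted p = 0.0496). Of 15 other peroxisomal genes, Scp2, a lipid carrier and thiolase, was higher at 0.40 and Acaa1a, the paralog of Acaa1b, lower at -0.25.

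The list of ketone and butyrate handling had 5 calls of 14, with 4 lower and 1 higher and a median of -0.14. Slc16a7, a monocarboxylate transporter, was at -0.57 (adjusted p = 0.000372), and Acss2 and Acss1, which activate acetate in the cytosol and in mitochondria, were at -0.52 (adjusted p = 0.00019) and -0.38 (adjusted p = 0.00158). The main butyrate and lactate transporter gene Slc16a1 was at -0.19 (adjusted p = 0.0311). Hcar2, a receptor for butyrate and β-hydroxybutyrate that is also known on neutrophils and macrophages, rose by 1.22 ± 0.12 (adjusted p = 1.48e-05). Of 14 fatty acid synthesis genes, Me1, malic enzyme, was higher at 0.52, and the desaturase gene Scd1 and the carbohydrate-responsive factor gene Mlxipl were lower at -0.57 and -0.35. Of 16 genes that mark mitochondrial content, Hspd1, a chaperone, was higher at 0.37 and Cs, citrate synthase, lower at -0.23, with a list median of 0.07.

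**Figure D5:**
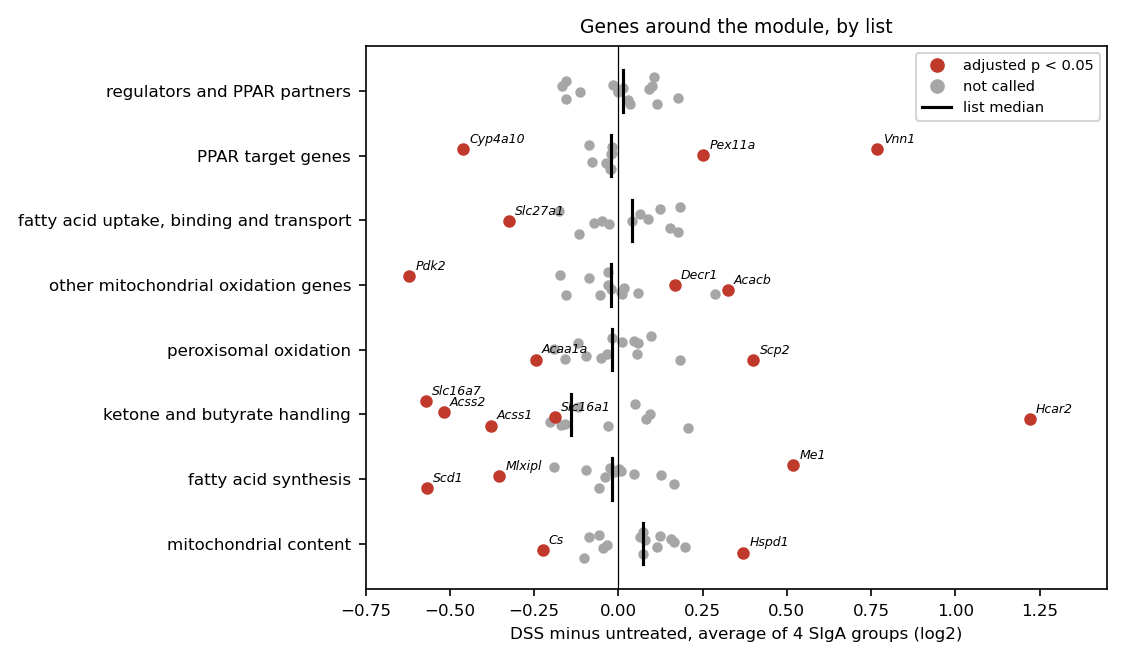
Average DSS difference (log2) of each measured gene in 8 lists of related genes. Red points passed at an adjusted p under 0.05, grey points did not, and black bars are list medians. Hcar2 at 1.22 and Vnn1 at 0.77 are the highest, and 4 red points of the ketone and butyrate list lie below 0.

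Markers of cell types moved with DSS as well. Of 10 surface colonocyte markers, 6 were lower and none higher, and their mean level was 11.73 to 12.09 in DSS arrays and 12.10 to 12.35 in untreated arrays, without overlap. Among them were the chloride exchanger gene Slc26a3 at -0.47 and the water channel gene Aqp8 at -0.96, beside which the falls of Ppargc1a, Fabp2, Pdk4 and Oxct1 stand. All 9 neutrophil markers rose, with a mean of 7.09 to 7.77 in DSS arrays and 6.19 to 6.58 in untreated arrays. Among these markers Ly6g averaged 12.23 over all arrays, while the others averaged 5.15 to 7.25. Its bright signal lifts the list means, and whether its probe set reads neutrophils alone was not tested. Of 10 macrophage markers 9 rose, with a mean of 6.69 to 7.11 in DSS arrays and 6.07 to 6.30 in untreated arrays.

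Of 8 fibroblast and matrix markers 3 rose, with means of 7.30 to 7.59 in DSS arrays and 6.84 to 7.46 in untreated arrays. Of 7 adipocyte and 8 endothelial markers, the other cells rich in Cd36, none was called, and their means overlapped, at 6.11 to 6.39 in DSS and 6.10 to 6.39 in untreated arrays for adipocytes and at 5.56 to 5.84 and 5.57 to 6.03 for endothelium. Of 7 small intestinal enterocyte markers 1 was higher and 1 lower. The array scale has no true zero, so that no marker can be called absent. What part these marker changes have in the differences of the members was not tested.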

How the data were processed

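Each array held pooled total RNA of colonic epithelial cells from 3 mice and was an Affymetrix whole-transcript array. Per the labels' protocols, RNA had an integrity number of 8.5 or more. The deposited values are log2 intensities summarised by the authors with RMA, per the submitters' processing notes. Its version, the scan dates and any hybridisation batches are not given in the sources used here, and no probe set has a detection call.

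Of 35557 probe sets, 21789 were annotated with a single gene, 1621 with several and 12147 with no gene. Only those of a single gene were used, and where a gene had more than 1 (999 genes) its brightest on average was taken, which left 19938 genes. The 8 group means were estimated in limma 3.58.1 (R 4.3.3) by a moderated two-sided test, which had 8 residual degrees of freedom and 5.03 from the prior. P-values were adjusted by Benjamini-Hochberg across all 19938 genes. The procedure was checked on simulated data with independent noise for each gene and added DSS differences. Those data held no arrays that stand apart, so the check does not cover them. DSS differences are DSS minus untreated, and SIgA differences are without minus with. Errors are standard errors. Since replicates are pools, p-values speak of the spread between pools and not between mice, and precision is limited by 2 arrays a group.

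The members and all gene lists were chosen with earlier results of these data known. Every member could be named. Of each list of related genes, those called in the average DSS comparison could be named, up to 4 by p, or the gene with the smallest p where none was called. Slc16a1 was named beyond this rule, after its values were seen. The level of a marker list is the mean over its genes in each array. Alternatives varied the prior variance, array weights, a replicate block, centring, quantile normalization, a filter on dim genes, the threshold and the arrays fitted. Leaving out the arrays that stand apart is given in the text beside the calls it ends. Promoter windows come from RefSeq on GRCm38.p6, whose coordinates are given for them alone.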

Additional observations from a re-analysis of the deposited data

How the results depend on the processing

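Ppargc1a and Acadl kept their calls in the average DSS comparison under all 28 alternatives, at -0.64 to -0.54 and 0.45 to 0.64. Fabp2, Oxct1 and Pdk4 lost theirs only where a change of at least 1.5-fold was required, which left 2 members, and Acsl5 in 16 of 28. Of those not called, Ppara was called in 3 (2 of them single arrays left out, and an adjusted p under 0.1) and Ehhadh in 2. Leaving out each array in turn gave 5 to 7 members there, 1 to 4 for DSS with both SIgA sources, 0 to 2 with passive only, 0 to 2 with active only, 0 to 2 with neither, 0 to 1 for lack of passive SIgA and 0 to 4 for loss of active SIgA in untreated mice (an array left alone in its group is taken to vary like the others).

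For DSS with both sources, 1 member was called without moderation, with array weights, at 1.5-fold and when only the compared arrays were fitted, 6 after quantile normalization and 5 at an adjusted p under 0.1. With passive only, 0 were called without moderation, and 1 after centring each array or without both untreated arrays that held both sources. With active only, 2 were called with a prior trend, the replicate block, the dimmest 30% left out or an adjusted p under 0.1, and 0 with array weights, centring, 1.5-fold, a fit restricted to the compared arrays, and without the 2 or 3 arrays that stand apart. With neither, 0 were called without moderation, and 1 in the restricted fit or without both arrays. Lack of passive and loss of active SIgA in untreated mice each gave 2 with the replicate block and at 0.1, and 0 without moderation, with array weights, with the dimmest 30% left out, at 1.5-fold, in the restricted fit and without the 2 or 3 arrays. After quantile normalization they gave 2 and 0. The cause of these changes was not tested. No member was called under any alternative for either SIgA source after DSS or for the interactions.

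Members near 0 changed sign in the average DSS comparison, none of them called. Under centring Eci1, Acat1 and Etfb were at -0.022, -0.019 and -0.022, and under quantile normalization Eci1, Acat1, Cd36, Crat and Etfb at -0.035, -0.011, 0.11, -0.0074 and -0.022. Without both untreated arrays Acads, Eci1, Cd36 and Etfa were at 0.0039, -0.040, 0.12 and -0.025, and without 3 at 0.074, -0.012, 0.16 and -0.052. Leaving out single arrays gave Acads -0.069 to 0.036, Acat1 -0.033 to 0.042, Cd36 -0.041 to 0.022, Crat -0.0028 to 0.060, Eci1 -0.025 to 0.027, Etfb -0.039 to 0.042, Etfdh -0.052 to 0.032 and Fabp1 -0.0014 to 0.072.

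The labels do not tie replicate numbers across groups, and deviations of same-numbered arrays correlated at -0.301 to 0.666 (median 0.076) over 28 pairs of groups, 14 of them over 0.1, so that not every pair passed and the numbers were not taken to pair the arrays, though an effect they share was not excluded. With the replicate block 6 members and 3032 genes were called in the average DSS comparison, against 6 and 2618 without it. The first arrays of 6 of 8 groups deviated with one another on average.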
